A study of Danio rerio with 4 samples.

Results

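The Il11, gp130, Stat3 and Socs3 axis was followed through 10 genes in larval zebrafish hearts: the ligands il11a and il11b, the receptor il11ra, the shared signal transducer il6st (gp130), the related receptor lifra, the kinases jak1 and jak2a, the transcription factor stat3, and the feedback inhibitors socs3a and socs3b. They were picked by symbol from 20269 listed genes. Of the 10, 8 had a mean of at least 1 FPKM (fragments corrected for transcript length and sequencing depth) over the 4 libraries and were compared, as were 13589 genes in all. The ligand il11b lay under that filter, and socs3a was given no value, since no listed gene ID was matched to it.

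Hearts carried the Tg(vmhc:mCherry-NTR) transgene, in which a promoter of ventricular cardiomyocytes drives nitroreductase, an enzyme that turns metronidazole (MTZ) into a toxin. All hearts came from larvae at 5 days post fertilization, and the 4 groups had 1 library each. For injury, 5 mM MTZ was given for 4 hours starting at 72 hours post fertilization, and these larvae are labelled as 2 days post treatment. From 76 to 124 hours, injured and uninjured larvae were kept either in 0.2% DMSO, the vehicle, or in 2 µM SIS3, which inhibits phosphorylation of the TGF-beta effector Smad3. The sources used here do not say if uninjured larvae also met MTZ. A single library per group means that every difference is between 2 libraries, without replicate error or test, and the depth behind each FPKM is unknown.

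Interleukin 11 binds its receptor Il11ra, and the pair engages gp130, the chain shared by receptors of the interleukin 6 family. Jak kinases bound to gp130 then phosphorylate Stat3, which enters the nucleus and induces target genes. One target is Socs3, which binds gp130 and Jak and limits further signalling. In zebrafish, Il11 and Stat3 signalling are known for roles in heart regeneration.

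The labelled tissue was checked first. Of 9 heart markers 7 were listed, and their summed level was 8399 to 10886 FPKM over the 4 libraries. The cardiac myosin light chain gene cmlc1 alone among them reached 0, in injured SIS3. Within the sum, the myosin light chain gene myl7 and the actin gene actc1a were lower in both injured libraries and the natriuretic peptide gene nppa higher. Markers of other tissues were also present. The summed level of 10 hepatocyte markers was 516, 269, 279 and 2751 FPKM in the uninjured library with DMSO, the uninjured one with SIS3, the injured one with DMSO and the injured one with SIS3. Every later set of 4 values keeps that order. That of 8 listed macrophage markers was 18.8, 20.9, 149 and 103.5 FPKM, with cd74a at 0 in both injured libraries. That of 5 listed neutrophil markers was 35.2, 30.2, 128 and 165 FPKM, with none at 0. That of 6 listed epicardium and fibroblast markers was 180, 169, 496 and 406 FPKM. Like most axis genes, this sum and the macrophage and neutrophil sums were higher in both injured libraries. Within the epicardium and fibroblast sum 4 markers were higher after injury with either compound, whereas postnb and pdgfra were lower. The 2 listed exocrine pancreas markers summed to 776, 835, 197 and 287 FPKM. The 3 listed skeletal muscle markers summed to 820, 626, 276 and 363 FPKM. Both sums were low in the injured libraries. Most of the muscle sum was ckma, whereas tnnt3b was at 24.7, 11.2, 13.0 and 28.0 FPKM, highest in injured SIS3. The 6 listed neural and eye markers summed to 142, 79.7, 0 and 2.96 FPKM. Most of that sum in the uninjured libraries was opn1mw2, at 103 FPKM with DMSO and 52.0 FPKM with SIS3. The part of any of these tissues and cell types in the axis values was not tested. Fewer cells of a type and less RNA per cell cannot be told apart in such bulk samples.

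Ablation of ventricular cardiomyocytes was accompanied by higher levels along most of the axis. In DMSO, 5 of the 8 genes compared were at least 2-fold higher after injury (il11a, il6st, jak1, stat3 and socs3b) and none was lower, beside 6.46% of all genes higher and 8.92% lower (15.4% in all). Those 878 higher and 1212 lower genes were 1253 and 910 without scaling, when the median gene shifted by 0.17. In SIS3, 4 of the 8 were at least 2-fold higher (il11a, il11ra, jak1 and socs3b) and none was lower, beside 6.37% of all genes higher and 6.77% lower (13.1% in all). The il11ra call rests on a transcript form listed in injured SIS3 alone, described below. The median log2 change of the 8 was 1.11 in DMSO and 1.04 in SIS3, beside −0.02 and −0.01 over all genes compared. These genes were chosen with earlier results of these data known, so the counts are a description.

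**Figure D1:**
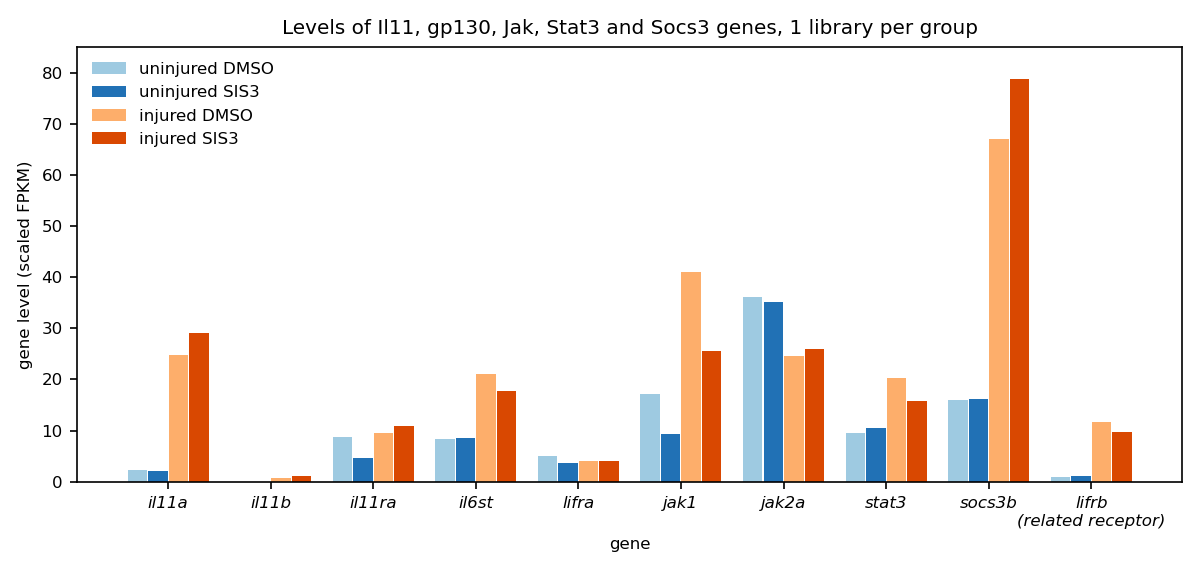
Gene level in scaled FPKM (linear axis from 0) for the 9 listed axis genes and the related receptor gene lifrb, with 1 bar per library. Both injured bars stand above both uninjured bars for each gene but lifra, whose bars overlap, and jak2a, which is lower in both injured libraries.

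The ligand il11a (ENSDARG00000037859, GRCz10 chromosome 16, 12717874 to 12724880, plus strand) was at 2.23, 2.12, 24.9 and 29.1 FPKM. Both injured libraries were high and both uninjured ones low, with no overlap. The injured level was 11.2 times the uninjured one in DMSO and 13.7 times in SIS3. On the log2 scale with a pseudocount of 1 FPKM, which shrinks them, these changes were 3.0 and 3.27. In these comparisons 43 and 49 of the 13589 genes had a larger increase. Il11a thus ranked differently by condition, below lifra in both uninjured libraries and above il6st and stat3 in both injured ones, on the per-length FPKM scale.

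The first and last exons of il11a gave the same level in each library, as did those of il6st, stat3 and socs3b. These identical values do not count as separate measurements of the level. In uninjured SIS3, 45.6% of its first-exon FPKM came from a longer first exon (12717874 to 12719216, 0.967 FPKM) that was not listed in the other 3 libraries. The paralog il11b (ENSDARG00000058557, chromosome 19, 10509147 to 10520900, minus strand) was listed in the injured libraries only. Its level was 0.669 FPKM with DMSO and 1.06 FPKM with SIS3. No fold is given for it, since it had no entry in the uninjured libraries and a missing entry can be a failed estimate.

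The ligand-binding receptor il11ra (ENSDARG00000026736, chromosome 10, 13340604 to 13438601, minus strand) was at 8.68, 4.55, 9.44 and 10.9 FPKM. The low library was uninjured SIS3, and the other 3 lay close together. The log2 injury change was 0.11 in DMSO and 1.11 in SIS3, a difference of 0.996 that was just under 2-fold. The share of all genes whose injury change differed at least 2-fold between SIS3 and DMSO was 8.07% (4.92% higher and 3.14% lower), and none of the 8 axis genes did. Those 669 higher and 427 lower genes were 572 and 557 without scaling. None of 8 is close to a share of 8.07%.

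The il11ra level depended on which transcript forms were listed. Its first exon has 2 listed forms. On the minus strand both begin at the same base, 13438601, and their other ends lie 5 bases apart. The form reaching to 13438524 was at 4.64, 4.55, 4.89 and 10.9 FPKM. The form reaching to 13438529 was at 4.04 and 4.55 FPKM in the uninjured and injured DMSO libraries and was listed in neither SIS3 library. The first form alone differed by a log2 value of only −0.02 between the uninjured libraries, so the lower sum in uninjured SIS3 lay in the second form. Between the injured libraries the first form alone was higher in SIS3 by a log2 value of 1.02, past 2-fold, whereas the sum differed by 0.19.

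An internal il11ra exon of 161 bases (13376063 to 13376223), a length that is not a multiple of 3, also differed. In injured SIS3 the form with the exon was at 3.37 FPKM and the form without it at 7.57 FPKM, an inclusion of 30.8%. In the other 3 libraries only the form with the exon was listed (8.68, 4.55 and 9.44 FPKM), an inclusion of 100% as listed. From uninjured to injured SIS3 the form with the exon thus went down, from 4.55 to 3.37 FPKM. The 2-fold higher il11ra level after injury in SIS3 therefore rests on the form without the exon. Between the injured libraries 8.68% of 1785 cassette exons with at least 5 FPKM in both differed by at least 20 percentage points, and 7 of them, this exon included, differed by at least as much as it did (−69.2 points). A last exon of il11ra was listed in injured SIS3 only, at 2.80 FPKM. Genes with a first-exon but no last-exon entry made up 6.84% to 7.99% of the genes compared that had a first-exon entry, depending on the library.

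**Figure D2:**
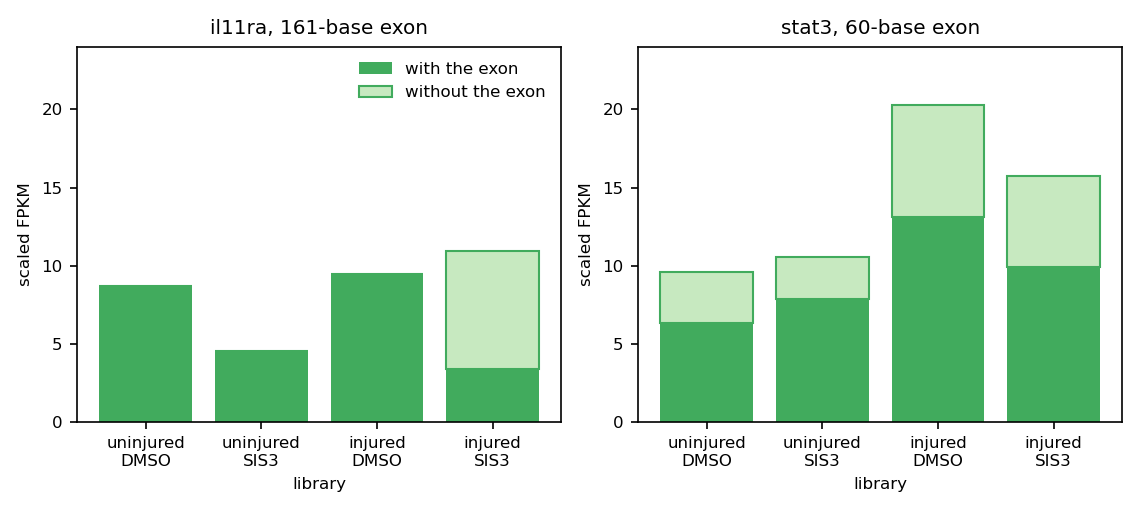
Scaled FPKM of the forms with (dark) and without (light) the 161-base exon of il11ra and the 60-base exon of stat3, with 1 bar per library. The il11ra form without the exon appears in injured SIS3 alone, at 7.57 FPKM, whereas both stat3 forms appear in all 4 libraries.

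The signal transducer il6st (ENSDARG00000104693, chromosome 10, 5787401 to 5820362, minus strand) was at 8.30, 8.47, 21.2 and 17.7 FPKM. The injured libraries were both higher than the uninjured ones, by 2.55 times in DMSO and 2.09 times in SIS3. On the log2 scale with a pseudocount of 1 these changes were 1.25 and 0.98, the second just short of the 2-fold line. With the pseudocount raised to 5 FPKM the change in DMSO was 0.98, also short of it.

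The receptors that pair with gp130 were split. Lifra, a leukemia inhibitory factor receptor gene (ENSDARG00000098857, chromosome 5, 7912546 to 7978899, minus strand), was at 5.07, 3.74, 3.99 and 4.01 FPKM, and injured and uninjured libraries overlapped. Its paralog lifrb (ENSDARG00000039863, chromosome 21, 21207426 to 21224817, plus strand) was at 0.860, 1.18, 11.7 and 9.78 FPKM. Both injured libraries were high for lifrb, by 13.6 times in DMSO and 8.27 times in SIS3. These ratios rest on low uninjured levels. With the pseudocount of 1 FPKM they were log2 changes of 2.77 and 2.30. In injured libraries lifrb thus stood above lifra, and in uninjured libraries below it.

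The kinase jak1 (ENSDARG00000020625, chromosome 6, 31381157 to 31442247, plus strand) was at 17.1, 9.27, 40.99 and 25.6 FPKM. It was higher after injury with either compound, by 2.40 times in DMSO and 2.76 times in SIS3. It was also lower in SIS3 than in DMSO in both conditions, with log2 differences of −0.82 without injury and −0.66 after it. Of all genes compared, 2.39% and 3.61% had a lower value in those pairs. These levels come from the first exon, since a last exon was listed in injured SIS3 only, at 2.499 FPKM.

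The kinase gene jak2a (ENSDARG00000104808, chromosome 21, plus strand) went the other way, at 36.1, 35.2, 24.6 and 26.0 FPKM. Both injured libraries were lower than both uninjured ones, with log2 changes of −0.54 in DMSO and −0.43 in SIS3, neither past 2-fold. The level is a sum over 2 loci that carry this gene ID. The locus from 228518 to 248441, which follows stard4 as jak2a does in the RefSeq gene order, was at 30.03, 26.0, 16.9 and 15.3 FPKM (log2 injury changes of −0.79 and −0.73). The other, listed from 130463 to 281013 and spanning several other genes, was at 6.06, 9.17, 7.66 and 10.6 FPKM. The lower level after injury thus lay in the first of these loci, and the second had log2 injury changes of 0.29 and 0.19. A retained intron of the first locus made up 0.348% to 0.645% of the summed FPKM of the spliced and retained forms.

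The transcription factor gene stat3 (ENSDARG00000022712, chromosome 3, 16880865 to 16957645, plus strand) was at 9.58, 10.6, 20.3 and 15.7 FPKM. The injured libraries were above the uninjured ones, by 2.12 times in DMSO and 1.49 times in SIS3. With the pseudocount of 1 FPKM these were log2 changes of 1.01 and 0.53. The log2 change in DMSO lay just past 2-fold. It was 0.996 when libraries were scaled by a trimmed mean of log ratios and 0.79 with a pseudocount of 5 FPKM.

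In injured DMSO, 15.1% of the first-exon FPKM of stat3 (3.07 FPKM) came from a first exon at 16906434 to 16906625 that was not listed in the other 3 libraries. The main first exon, at 16880865 to 16881052, was at 9.58, 10.3, 17.2 and 15.7 FPKM, with log2 injury changes of 0.78 in DMSO and 0.57 in SIS3. On that exon alone stat3 did not pass 2-fold. A cassette exon of 60 bases (16948657 to 16948716), a multiple of 3, was included at 66.0%, 74.3%, 64.6% and 62.8%, and no pair of libraries compared was 20 percentage points apart. Shares that far apart were taken over cassette exons with at least 5 FPKM in both libraries of a pair. They were 11.8% of 1701 for injury in DMSO and 11% of 1768 for injury in SIS3. For SIS3 they were 8.68% of 1785 after injury and 8.78% of 1913 without injury.

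The feedback inhibitor socs3b (ENSDARG00000026611, chromosome 12, 34172177 to 34175268, plus strand) was at 15.98, 16.3, 66.9 and 78.8 FPKM. Both injured libraries were high and did not overlap with the uninjured pair, which differed by a log2 value of only 0.02. The injured level was 4.19 times the uninjured one in DMSO and 4.85 times in SIS3. Socs3b had the highest FPKM of the axis in both injured libraries, whereas jak2a was highest in both uninjured ones. The reference table gives the symbol SOCS3 to 2 gene IDs, of which this one was placed as socs3b by chromosome and neighbouring genes. The other ID had no entry in the 4 libraries and was taken as socs3a by elimination only.

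With SIS3 the axis genes compared lay within 2-fold of vehicle in both conditions by gene level, summed over transcript forms. After injury none of the 8 was at least 2-fold higher or lower, beside 3.19% of all genes higher and 1.13% lower (4.33% in all). Without injury none was either, beside 1.77% of all genes higher and 1.46% lower (3.24% in all). None of 8 is close to those shares, so these counts do not set the axis apart from other genes. After injury the log2 differences ran from −0.66 for jak1 to 0.23 for socs3b, with stat3 at −0.35, il6st at −0.25 and il11a at 0.22. Without injury they ran from −0.82 for jak1 to 0.13 for stat3, and il11ra was at −0.80. In injured SIS3 the ligand and the inhibitor were therefore slightly above their levels in injured DMSO, and gp130 and stat3 slightly below. The kinase jak1 was further below, at 0.62 times its level in injured DMSO. With 1 library per group it is not known whether differences of this size exceed the spread between hearts, and a difference under 2-fold does not show that SIS3 had no effect. Smad3 phosphorylation itself was not measured.

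**Figure D3:**
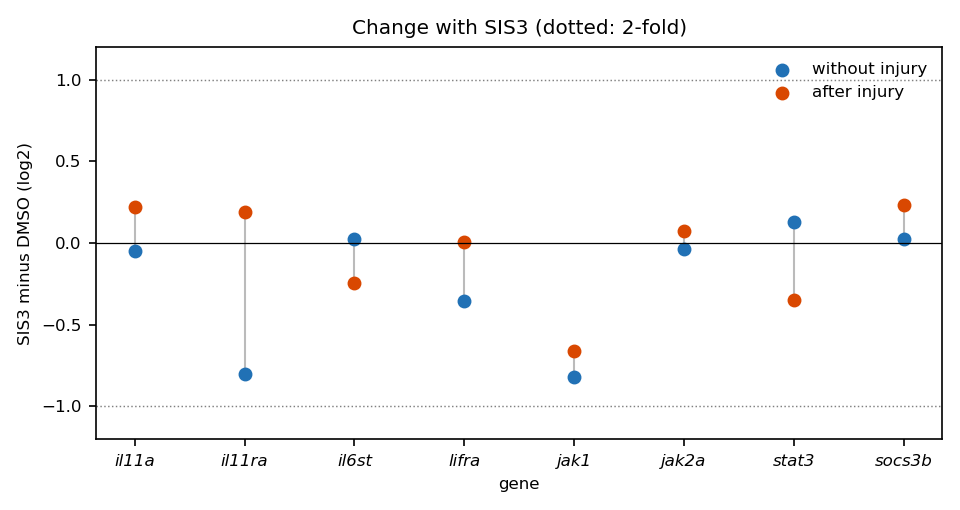
Log2 difference between SIS3 and DMSO for the 8 axis genes compared, without injury (blue) and after injury (orange), with dotted lines at 2-fold. All 16 points lie inside the 2-fold lines, and jak1 is lowest in both conditions. Of all genes compared, only 3.24% without injury and 4.33% after it were at least 2-fold apart.

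Genes around the axis were counted from lists of ligands, receptors, kinases, inhibitors and targets. Of 13 other ligand genes of the gp130 family and its relatives, 3 were compared. The leptin gene lepa, whose receptor resembles gp130, was not listed in either uninjured library and was at 2.89 and 3.39 FPKM in the injured ones, so no fold is given. On the log2 scale with a pseudocount of 1, neither of the other 2 passed 2-fold after injury. Crlf1a, which in mammals encodes a partner of cardiotrophin-like cytokine, was at 1.71, 2.32, 3.90 and 5.11 FPKM. Its injured level was 2.28 times the uninjured one in DMSO and 2.21 times in SIS3. With the pseudocount these were log2 changes of 0.86 and 0.88. Cntf, the ciliary neurotrophic factor gene, was at 5.06, 4.92, 4.53 and 5.89 FPKM. Interleukin 6 (il6) was not listed in any library.

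Of 7 other receptor genes, 4 were compared. In DMSO lifrb and csf3r were at least 2-fold higher after injury and cntfr at least 2-fold lower. Of all genes compared, 6.46% were higher and 8.92% lower. In SIS3 lifrb alone passed 2-fold, with csf3r at 0.90 and cntfr at −0.98 on the log2 scale. The shares of all genes there were 6.37% and 6.77%. The ciliary neurotrophic factor receptor cntfr was at 5.87, 5.74, 1.37 and 2.41 FPKM, and in the same libraries 6 listed neural and eye markers summed to 142, 79.7, 0 and 2.96 FPKM. The granulocyte colony-stimulating factor receptor csf3r, found on myeloid cells, was at 0.917, 0.736, 3.57 and 2.23 FPKM, summed over 2 loci that carry its gene ID. These values stand beside the higher macrophage and neutrophil sums given above. The part of those cells in these differences was not tested.

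Of 10 other Jak and Stat genes, 8 were compared and none was at least 2-fold higher after injury with either compound. Stat4 was at least 2-fold lower with both, at 7.27, 6.80, 2.47 and 1.87 FPKM. Over all genes compared, 6.46% were higher and 8.92% lower in DMSO, and 6.37% and 6.77% in SIS3. The list median was 0.14 in DMSO and −0.06 in SIS3. Jak2b was at 8.17, 8.89, 8.70 and 7.81 FPKM, tyk2 at 1.62, 1.92, 2.71 and 2.39 FPKM, and stat6 at 8.09, 9.53, 12.7 and 9.20 FPKM. Stat1a, a mediator of interferon responses, stood out in uninjured SIS3 (9.22, 16.7, 10.6 and 11.98 FPKM), a log2 difference of 0.79 from its vehicle.

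Of 23 other Socs genes and signalling inhibitors, 16 were compared. In DMSO ptpn6 was at least 2-fold higher after injury and socs2 at least 2-fold lower. Of all genes compared, 6.46% were higher and 8.92% lower, and 1 of 16 each way is close to those shares. In SIS3, ptpn6, socs1a and ptpn1 were at least 2-fold higher and 1 gene, socs5b, was counted as lower. Over all genes compared, 6.37% were higher and 6.77% lower. Socs5b was at 2.53, 2.49 and 1.96 FPKM and was not listed in injured SIS3. Its count as lower thus rests on a level of 0, and no fold is given there. Ptpn6 encodes a phosphatase of blood cells and was at 1.86, 2.00, 15.2 and 8.33 FPKM, with the macrophage sum high in the same 2 libraries. Socs1a, an inhibitor of Jak kinases, was at 5.48, 3.54, 10.9 and 11.6 FPKM, and the phosphatase gene ptpn1 at 7.26, 5.32, 14.6 and 16.2 FPKM. Socs2 was at 3.28, 3.24, 0.246 and 1.33 FPKM, and cish at 14.8, 12.9, 13.9 and 16.9 FPKM. Socs3b and ptpn6 were thus at least 2-fold higher after injury in both pairs of libraries, and socs1a and ptpn1 in SIS3, with log2 changes of 0.88 and 0.92 in DMSO.

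Of 33 genes listed as Stat3 targets from mammals, 20 were compared, and they were not all shifted one way. In DMSO 4 were at least 2-fold higher after injury (timp2b, hamp, bcl6ab and tnfrsf1a) and 2 lower (myca and hif1aa), with a median of −0.04. Of all genes compared, 6.46% were higher and 8.92% lower. In SIS3 6 were higher (the same 4 with mmp9 and fosl1a) and hif1aa was lower, with a median of 0.45. The shares of all genes there were 6.37% and 6.77%. In DMSO fosl1a (0.996) and vegfaa (0.994) lay just short of 2-fold on the log2 scale, whereas mmp9 was at −0.09. The transcriptional repressor gene bcl6ab was at 2.23, 3.74, 13.9 and 12.04 FPKM, and the tumour necrosis factor receptor tnfrsf1a at 8.28, 12.6, 38.7 and 38.7 FPKM. The kinase gene pim1 was at 54.7, 57.4, 88.1 and 80.7 FPKM and the survival gene mcl1a at 129.9, 97.8, 141.6 and 151.3 FPKM, neither past 2-fold. Myca, a c-Myc gene, was at 9.24, 7.94, 4.03 and 4.82 FPKM, and mycb at 50.3, 51.9, 37.3 and 39.9 FPKM.

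With SIS3 after injury 3 target-list genes were at least 2-fold higher, as were 3.19% of all genes compared. The 3 were timp2b (4.41, 3.68, 42.5 and 114.5 FPKM), hamp (0.672, 0.440, 8.90 and 19.2 FPKM) and mmp9 (2.84, 2.23, 2.61 and 14.4 FPKM). Timp2b encodes a metalloprotease inhibitor and is on the list although the mammalian target usually named is Timp1. Its level is a sum over 2 loci that carry its gene ID, which were not split. Hamp encodes hepcidin, a liver hormone of iron balance. Mmp9 encodes a gelatinase of neutrophils and macrophages. The hepatocyte sum was highest in injured SIS3 (2751 FPKM), as was the neutrophil sum (165 FPKM), whose list itself holds mmp9. Their part in these differences was not tested.

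**Figure D4:**
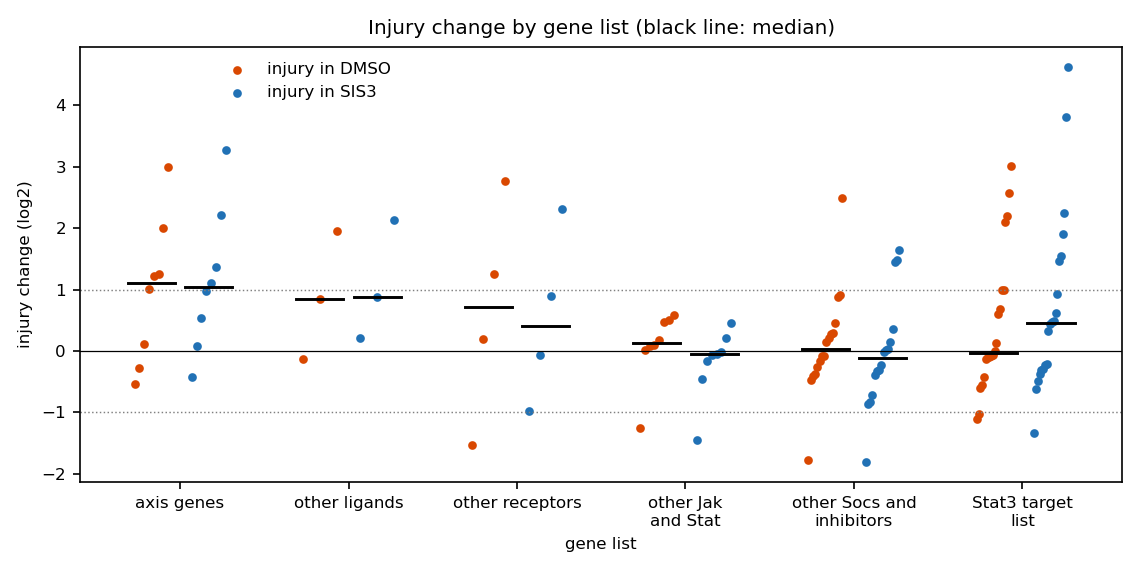
Log2 injury change of each compared gene in DMSO (orange) and SIS3 (blue) by list, with black lines at the medians and dotted lines at 2-fold. The medians of the axis genes are 1.11 and 1.04, and those of other Jak and Stat genes are 0.14 and −0.06. Points of lepa (both compounds) and socs5b (SIS3) use a level of 0 where the gene was not listed.

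**Figure D5:**
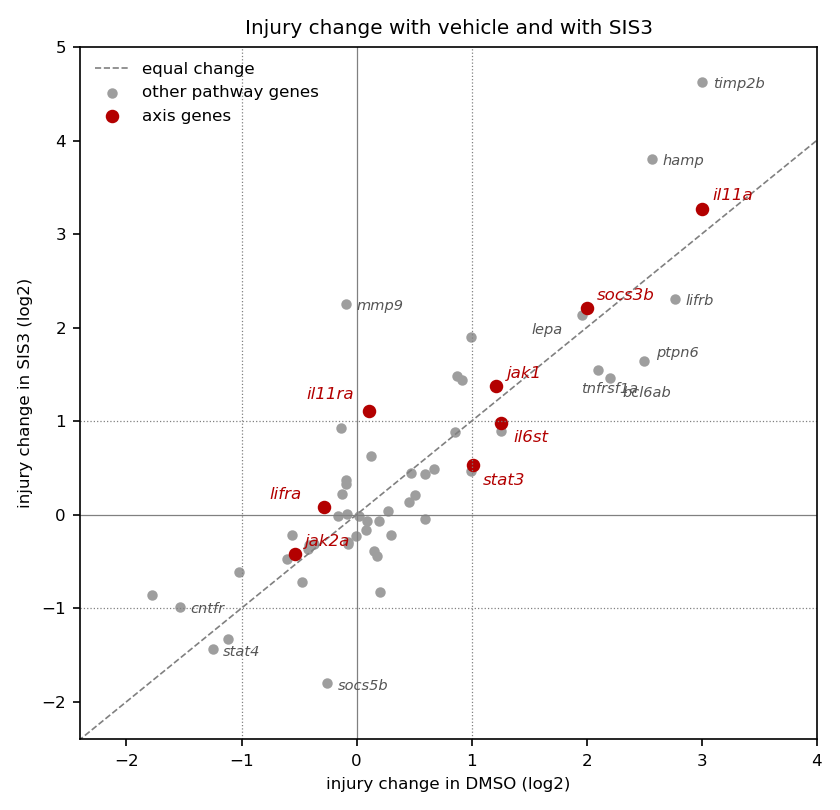
Log2 injury change in DMSO (x) against that in SIS3 (y) for the axis genes (red) and other listed pathway genes (grey), with a dashed line of equal change and dotted lines at 2-fold. Il11a and socs3b lie near the dashed line, il11ra above it and stat3 below it. The positions of lepa (both axes) and socs5b (y) use a level of 0 where the gene was not listed.

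Genes with the most similar pattern were found among 6717 genes from the distance between log2 levels centred on each gene's own mean over the 4 libraries. For il11a the 5 nearest were krt18a.1 (a simple-epithelial keratin), PLXNC1 (a semaphorin receptor), ABRACL, cbx7a (a Polycomb protein) and c6.2 (complement), at distances of 0.188 to 0.407. Krt18a.1 was at 138, 113, 1004 and 1112 FPKM. PLXNC1 was listed in the injured libraries only (6.67 and 6.72 FPKM), so its distance uses levels of 0 in the uninjured ones. For socs3b they were havcr1, lyz (lysozyme of myeloid cells), CD63 (a lysosomal tetraspanin), ugt2a4 and adam8a, at 0.0849 to 0.206. Lyz, which is also on the neutrophil list, was at 22.5, 22.0, 92.5 and 101.3 FPKM. For stat3 they were f3b (tissue factor), irf2a, TMEM263, SHC1 (a receptor adaptor) and GK3, at 0.0412 to 0.0842. F3b was at 40.6, 43.3, 83.8 and 65.1 FPKM, high in injured DMSO and between in injured SIS3, like stat3.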

How the data were processed

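RNA was measured in 4 libraries, 1 per group, each placed by its labels. Values are FPKM per transcript event (first or last exon, skipped exon, retained intron, exon end), computed by the authors and deposited without zeros, per the file headers. CASAVA 1.8, HISAT2 2.0.5, HTSeq 0.6.1 and GRCz10 are named in the submitters' processing notes, with no roles. The program behind the tables was not given in the sources used here. Repeated entries were used once. A gene's level is its summed first-exon or summed last-exon FPKM, whichever is larger, and 0 where the gene is not listed. The design had assumed gene-level FPKM.

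Median-of-ratios scaling was applied (log2 factors −0.12, −0.03, 0.10 and 0.05), and all levels given are scaled. Unscaled, the median shift over genes was 0.17 for injury in DMSO and 0.05 in SIS3, −0.04 for SIS3 after injury and 0.07 without. Changes are differences of log2(scaled FPKM + 1), which understates low genes. They were computed at a mean of 1 FPKM or more and called at 2-fold. Depth is unknown. Symbols shared by several gene IDs were resolved by chromosome and neighbours in RefSeq GRCz12tu, with no coordinates taken from it. Axis genes are named whatever their values and other pathway genes from lists, with the 5 most similar genes among those reaching 5 FPKM in some library. Members and lists were chosen with earlier results of these data known. Scaling and 2-fold calling were tested on simulated gene levels with noise of a set size. Gene matching, exon sums and the similarity search were not tested in this way. The work used Python 3.11.15 with pandas 2.3.3, numpy 2.4.6 and matplotlib 3.10.9. Scaling, pseudocount, filter and exon end were varied.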

Additional observations from a re-analysis of the deposited data

Results flagged for a closer look

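Some axis genes had log2 differences of opposite sign in the 2 library pairs of a contrast. With 1 library per group these differences were not tested. The injury change of lifra was −0.284 in DMSO and 0.0795 in SIS3. The SIS3 change after injury and without it was 0.219 and −0.0493 for il11a, 0.193 and −0.803 for il11ra, and −0.245 and 0.0268 for il6st. It was 0.00656 and −0.357 for lifra, 0.0765 and −0.0346 for jak2a, and −0.347 and 0.126 for stat3. All of these values lie within 2-fold. Without scaling the signs were no longer opposite for the SIS3 change of il11a (0.170 and 0.0166), jak2a (0.0273 and 0.0593) and lifra (−0.0348 and −0.276).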

How the results depend on the processing

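Over the alternatives for scaling, pseudocount, filter and exon end, 297 values of single axis genes stayed on the same side of 2-fold. Another 4 fell short of it, 4 newly passed it and none past it reversed. Of the 297, 40 came from dropping the filter and 35 from a filter at a mean of 5 FPKM. A filter decides only which genes are compared, so those values could not move. Another 40 of the 297 used first-exon FPKM only and 30 used last-exon FPKM only. Nearly all of these could hardly move either, since the sum used is the gene level itself. The exceptions were jak2a by first exons and lifra by last exons. Small values near 0 did change sign. Without scaling the SIS3 change without injury was 0.0166 for il11a and 0.0593 for jak2a, that after injury was −0.0348 for lifra (−0.0690 by last-exon FPKM), and the difference of the injury changes was −0.0320 for jak2a. With a pseudocount of 5 FPKM, which shrinks every change, 3 axis genes instead of 5 were at least 2-fold higher for injury in DMSO (il6st and stat3 fell short). By summed last-exon FPKM only, 2 instead of 4 were higher for injury in SIS3, because il11ra and jak1 then had too little FPKM to be compared. For the difference of the injury changes, 1 axis gene (il11ra) passed 2-fold with the trimmed mean of log ratios (1.003) and with a pseudocount of 0.5 FPKM (1.06). Il6st passed it for injury in SIS3 without scaling (1.05) and with a pseudocount of 0.5 FPKM (1.02), and il11ra fell short with one of 5 FPKM (0.74). Over all genes, the share called was lowest with a pseudocount of 5 FPKM and highest with one of 0.5 FPKM, at 5.74% to 18.4% for injury in DMSO, 4.83% to 16.1% for injury in SIS3, 1.58% to 6.14% for SIS3 after injury, 1.02% to 4.56% without injury and 2.75% to 10.7% for the difference. With the pseudocount of 5 FPKM 348 genes were higher and 432 lower for injury in DMSO, instead of 878 and 1212. No paired analysis was possible because each group has 1 library. No library could be left out for the same reason.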
